A study of Mus musculus with 38 samples.

Results

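The genes described here are 9 genes that interferon induces in mouse cells, namely Irf7, Isg15, Ifit1, Ifit2, Ifit3, Ifi27, Ifitm1, Ifitm3 and Bst2. They were picked by gene symbol from the array's probe annotation, in which 18194 genes had a probe set annotated to 1 gene. Of the 9 genes, 8 had probe sets annotated to 1 gene, 9 probe sets in all with 2 for Ifi27, while Isg15 was represented only by a probe set annotated to both Isg15 and Gm9706. That shared probe set is described below but was not tested. Expression was measured in whole testes of prepubertal males with Affymetrix arrays, 1 male per array and 38 arrays in total, and all values are log2 signal intensities. At 7 days postpartum (dpp) the groups were MSM (n = 3), B6-ChrXMSM (n = 3), B6-ChrXTMSM (n = 3), F1 (n = 8) and B6 (n = 3). At 5 dpp they were MSM, B6-ChrXMSM, B6-ChrXTMSM, XS39-tel, F1 and B6, with n = 3 each. MSM is an inbred strain derived from the Japanese subspecies M. m. molossinus, and B6 (C57BL/6J) derives mainly from M. m. domesticus. B6-ChrXMSM carries nearly the whole MSM X chromosome on the B6 background, B6-ChrXTMSM carries its distal part, and XS39-tel carries a shorter distal segment. The F1 males came from B6-ChrXTMSM females and B6-Chr1MSM males, so that they had the distal MSM X and were heterozygous for MSM and B6 alleles on chromosome 1. The 9 genes lie on chromosomes 4 (Isg15), 7 (Irf7, Ifitm1 and Ifitm3), 8 (Bst2), 12 (Ifi27) and 19 (Ifit1, Ifit2 and Ifit3), which in all groups other than MSM come from B6. MSM therefore was the single group with MSM alleles of the 9 genes themselves.

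Interferons are cytokines that warn cells of viral infection. Type I interferons bind a receptor pair coupled to the kinases Jak1 and Tyk2, and signalling through them leads to a complex containing Irf9 that binds the interferon-stimulated response element (ISRE) in target promoters. Irf7 is the transcription factor that amplifies interferon production itself. Isg15 is a ubiquitin-like protein attached to other proteins. Ifit proteins bind RNA or translation factors and restrict viral protein synthesis, Ifitm proteins sit in membranes and hinder viral entry, Bst2 (tetherin) holds budding virions on the cell surface, and Ifi27 is a small membrane protein. In the mouse, Ifitm1 and Ifitm3 are also known from early germ cells, where Ifitm3 was named fragilis.

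To show which of the 9 genes carry the classical element near the annotated start, the 300 bases around each RefSeq start (250 before and 50 after, build GRCm38.p6, the C57BL/6J reference) were searched for GAAANNGAAA on both strands (TTTCNNTTTC on the other strand). Promoters were found for 8 of the 9 genes. The letters occurred in 5 of these 8 genes and in 1079 of the 27025 mouse genes with promoters of the same length. By promoter, the share was 3.44% of 32851. The 160 bases before the start are shown for Isg15, Ifit1, Ifit3 and Bst2, which held the letters, and for Ifit2 and Ifitm1, the genes with the main expression differences described below, which did not. Capitals mark GAAANNGAAA or TTTCNNTTTC, and all sequences read 5′ to 3′ on the strand of the gene.
Isg15 (chr4:156200819-156200978, minus strand): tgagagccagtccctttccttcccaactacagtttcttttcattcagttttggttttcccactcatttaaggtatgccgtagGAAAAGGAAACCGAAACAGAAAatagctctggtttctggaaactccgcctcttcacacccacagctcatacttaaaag
Ifit1 (chr19:34640729-34640888, plus strand): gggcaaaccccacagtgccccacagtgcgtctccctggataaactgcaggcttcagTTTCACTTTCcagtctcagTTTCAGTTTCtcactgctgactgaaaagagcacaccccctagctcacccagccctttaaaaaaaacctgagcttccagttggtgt
Ifit3 (chr19:34583369-34583528, plus strand): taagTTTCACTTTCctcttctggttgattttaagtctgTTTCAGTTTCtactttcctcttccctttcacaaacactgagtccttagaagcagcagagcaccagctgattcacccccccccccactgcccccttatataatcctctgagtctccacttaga
Bst2 (chr8:71537473-71537632, minus strand): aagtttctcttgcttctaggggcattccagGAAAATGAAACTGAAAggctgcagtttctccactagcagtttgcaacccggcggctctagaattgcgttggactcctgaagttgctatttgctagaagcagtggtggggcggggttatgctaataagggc
Ifit2 (chr19:34550534-34550693, plus strand): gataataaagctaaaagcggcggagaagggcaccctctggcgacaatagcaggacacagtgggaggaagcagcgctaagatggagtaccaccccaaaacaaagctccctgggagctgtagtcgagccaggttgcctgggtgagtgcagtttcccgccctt
Ifitm1 (chr7:140967916-140968075, plus strand): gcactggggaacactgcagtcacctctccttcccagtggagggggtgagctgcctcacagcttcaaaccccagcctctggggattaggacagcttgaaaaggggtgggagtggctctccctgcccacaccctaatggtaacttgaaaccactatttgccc
Isg15 held 3 overlapping matches, Bst2 held 2 overlapping matches, and Ifit1 and Ifit3 each held 2 separate ones on the opposite strand. The matches of Ifitm3 lay just after its start, at bases 3 to 12 and 20 to 29. Irf7, Ifitm1 and the 2 annotated starts of Ifit2 held none in these windows. These are letter matches in the reference genome, and the MSM sequence was not used here.

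A first question was whether the 9 genes were expressed at all in testes without any labelled infection or treatment. Irf7, Ifit1 and Ifit3 were below the expression filter (a mean signal above 10, or 3.32 on the log2 scale) in all 11 groups. Over the 38 arrays Irf7 (1417244_a_at) ranged from 1.30 to 1.95, Ifit1 (1450783_at) from 0.44 to 1.25 and Ifit3 (1449025_at) from 0.93 to 1.54. The probe set shared by Isg15 and Gm9706 (1431591_s_at) ranged from 2.22 to 2.997, also below the filter on every array. None of these genes was tested. Ifi27 (1452956_a_at and 1454757_s_at), Ifitm1 (1424254_at), Ifitm3 (1423754_at) and Bst2 (1424921_at) exceeded the filter on all 38 arrays. Ifit2 (1418293_at) exceeded it in 9 of the 11 groups, the exceptions being MSM at 7 and 5 dpp. The genes that passed the filter were thus Ifit2, Ifi27, Ifitm1, Ifitm3 and Bst2, 5 genes with 6 probe sets.

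**Figure D1:**
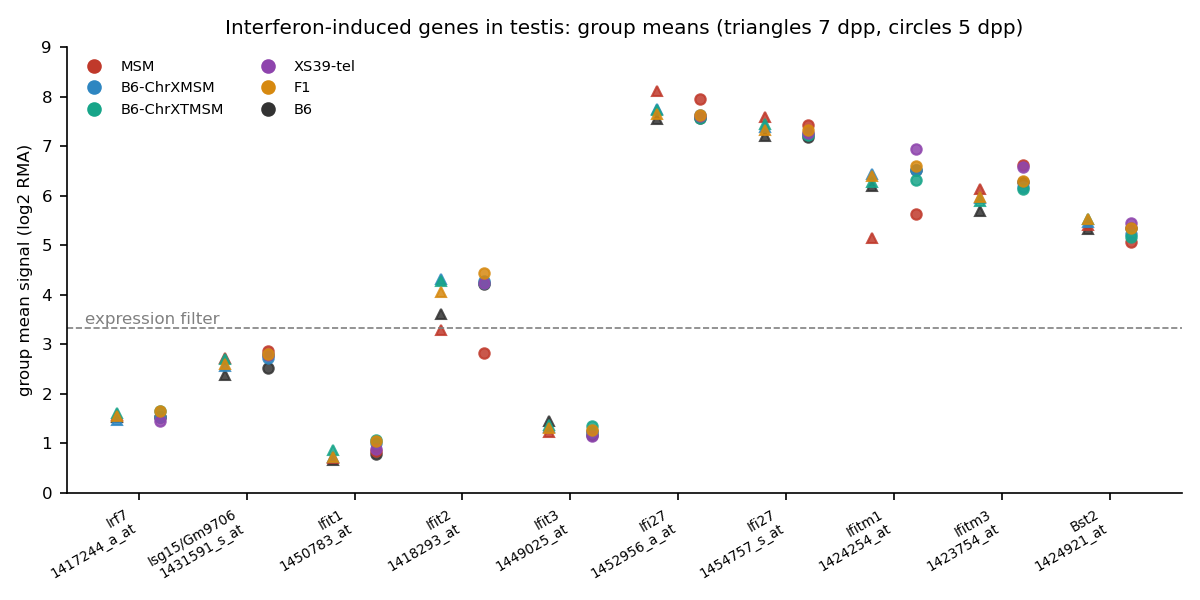
Group mean signal (log2 RMA, y axis) of each probe set of the interferon-induced genes (x axis), with triangles for 7 dpp, circles for 5 dpp and colours for the strains; levels of different probe sets are not on a common scale. Irf7, Ifit1, Ifit3 and the shared Isg15/Gm9706 probe set stay below the dashed expression filter at 3.32 in all 11 groups, and Ifit2 falls below it only in MSM.

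The rest of the pathway was expressed only in part. None of the 6 interferon genes on the array (Ifna1, Ifna2, Ifna4, Ifna5, Ifnb1 and Ifng) averaged above the filter, while 9 of 10 receptor and signal transducer genes did, Stat2 being the one below it. Of 40 other induced effectors, 16 averaged above the filter, and the classical antiviral genes Mx1, Mx2, Oas2, Rsad2 and Cxcl10 were among those below it. Above it were also 2 of 5 other interferon regulatory factors, 4 of 10 nucleic acid sensors, 5 of 11 antigen presentation genes, 2 of 3 negative regulators, 1 of 3 genes of Isg15 conjugation and, among 9 close paralogs of the 9 genes, Ifitm2 alone. Markers of lymphocytes were below the filter for all 8 genes listed, and of 4 plasmacytoid dendritic cell genes 1 was above it. Of 13 macrophage markers 9 were above it, with Adgre1, Cd14, Fcgr1 and Aif1 below it. The tissue label was borne out by its own markers, as 8 of 9 Sertoli cell genes, all 4 Leydig cell genes, all 5 peritubular myoid genes and 9 of 11 germ cell genes averaged above the filter. Of tissues that can be carried over in dissection, 3 of 6 adipose genes and 1 of 4 epididymis genes were above the filter, and the adipose mean varied within groups, from 3.32 to 5.41 in B6 at 5 dpp. In whole testis RNA, fewer cells of a type and less RNA per cell cannot be told apart.

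The comparison of MSM with B6 asked how the subspecies differ. Ifitm1 was lower in MSM testes at both ages and Ifit2 was lower at 5 dpp. Ifi27 (0.25 to 0.56), Ifitm3 (0.35 to 0.45) and Bst2 (-0.29 to 0.08, all as log2 fold changes) were not called at either age. At 7 dpp 1 of the 6 tested probe sets (Ifitm1) was called lower and none higher, where a call needs an adjusted p under 0.05 and a change of at least 1.5-fold. Of all tested probe sets in that comparison 17.3% were called in either direction, and 7.87% of all tested were called lower. At 5 dpp 2 of the 6 (Ifit2 and Ifitm1) were called lower and none higher, against 28.2% called in either direction and 11.9% called lower of all tested probe sets. Calls were thus frequent throughout the genome in these 2 comparisons, and the counts for the 6 probe sets are not read as particular to them. Probe sets on chromosomes 1 and X that overlap known MSM polymorphisms were left out, but the probe sets of the 9 genes lie elsewhere and were not screened, so the part of sequence mismatch in any MSM difference was not tested.

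Ifit2 had the largest MSM difference among the 6 probe sets at 5 dpp. At 7 dpp its signal was 3.26, 3.36 and 3.23 in MSM testes, against 3.75, 3.54 and 3.55 in B6 testes. At 5 dpp it was 2.91, 2.72 and 2.84 in MSM testes, against 4.15, 4.25 and 4.23 in B6 testes. Every MSM array was below every B6 array at both ages, and the gap was wider at 5 dpp. At 5 dpp the log2 fold change was -1.39 ± 0.07 (SE, adjusted p = 2.46e-06). At 7 dpp it was -0.33 ± 0.08 (SE, adjusted p = 0.00572), which did not reach the fold threshold. MSM means were below the expression filter, at 3.28 ± 0.07 at 7 dpp and 2.82 ± 0.10 at 5 dpp (SD, n = 3 each). In every comparison of MSM with other groups Ifit2 therefore passed the filter only through the group in which it was higher, and the size of its fold is set against a signal near the lower end of the scale. With no filter at all, the call at 5 dpp had an adjusted p of 6.76e-06.

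**Figure D2:**
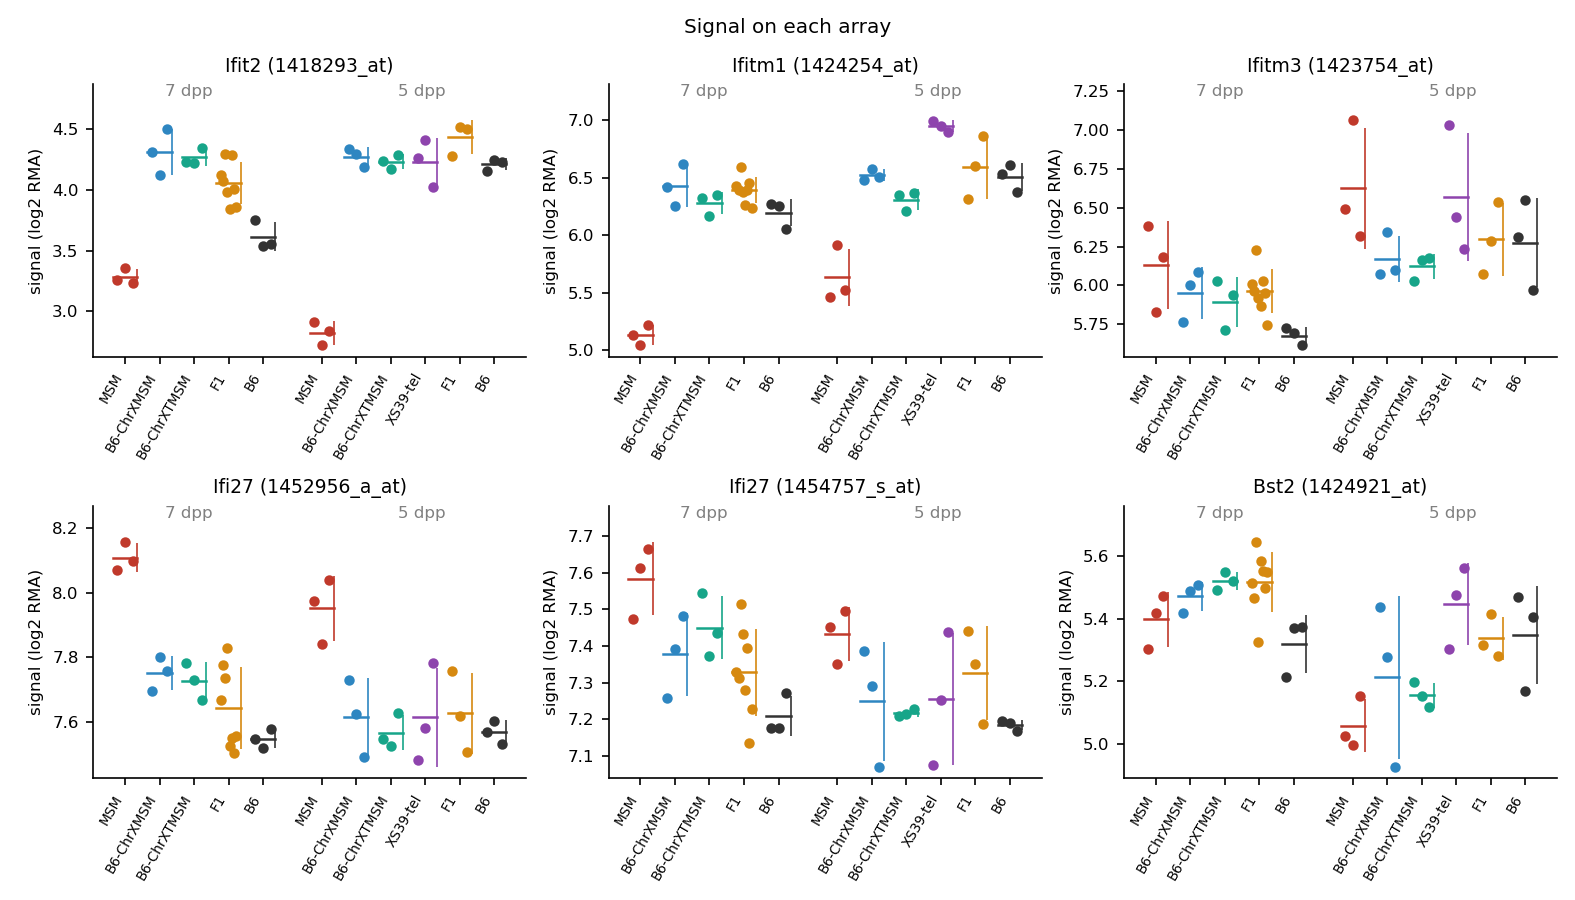
Signal on each array (points, log2 RMA, y axis) of the 6 probe sets above the filter, by group (x axis) with 7 dpp on the left and 5 dpp on the right; horizontal lines are group means and vertical lines ± 1 SD. MSM arrays of Ifit2 (2.72 to 3.36) and of Ifitm1 (5.04 to 5.92) lie below all other arrays, and B6 arrays of Ifit2 are lower at 7 dpp (3.54 to 3.75) than at 5 dpp (4.15 to 4.25).

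Ifitm1 was lower in MSM at both ages. At 7 dpp its signal was 5.13, 5.04 and 5.22 in MSM testes, against 6.27, 6.25 and 6.06 in B6 testes (log2 fold change -1.06 ± 0.08, SE, 2.09-fold lower, adjusted p = 1.47e-05). At 5 dpp it was 5.46, 5.92 and 5.52 in MSM testes, against 6.54, 6.61 and 6.38 in B6 testes (log2 fold change -0.88 ± 0.13, SE, 1.83-fold lower, adjusted p = 0.000447). The groups did not overlap at either age. Unlike Ifit2, Ifitm1 was above the filter on every MSM array.

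Ifitm3, the neighbour and paralog of Ifitm1 on chromosome 7, did not follow it. At 7 dpp Ifitm3 gave 6.38, 5.83 and 6.18 in MSM testes, against 5.73, 5.69 and 5.62 in B6 testes, a log2 fold change of 0.45 ± 0.13 (SE, adjusted p = 0.0146) without overlap but under the fold threshold. At 5 dpp it gave 6.49, 7.06 and 6.32 in MSM testes, against 6.31, 6.55 and 5.97 in B6 testes, and the groups overlapped (log2 fold change 0.35 ± 0.21, SE, adjusted p = 0.169). Without MSM replicate 2, the lowest array of its group at 7 dpp, Ifitm3 passed the fold threshold (0.60, adjusted p = 0.000777). The third gene of this cluster, Ifitm2, was not among the 9 but gives the clearest contrast with Ifitm1. At 7 dpp Ifitm2 (1417460_at) had a mean of 7.06 ± 0.09 in MSM and 6.05 ± 0.07 in B6 (SD, n = 3 each), a log2 fold change of 1.01 ± 0.07 (SE, adjusted p = 9.2e-06). Its mean at 5 dpp was 8.23 ± 0.33 in MSM and 6.90 ± 0.05 in B6 (SD, n = 3 each), a log2 fold change of 1.33 ± 0.15 (SE, adjusted p = 0.00011). Within a single gene cluster, then, MSM was lower for Ifitm1 and higher for Ifitm2. The Ifitm paralogs are similar in sequence, and whether their probes bind more than 1 of them was not tested.

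**Figure D3:**
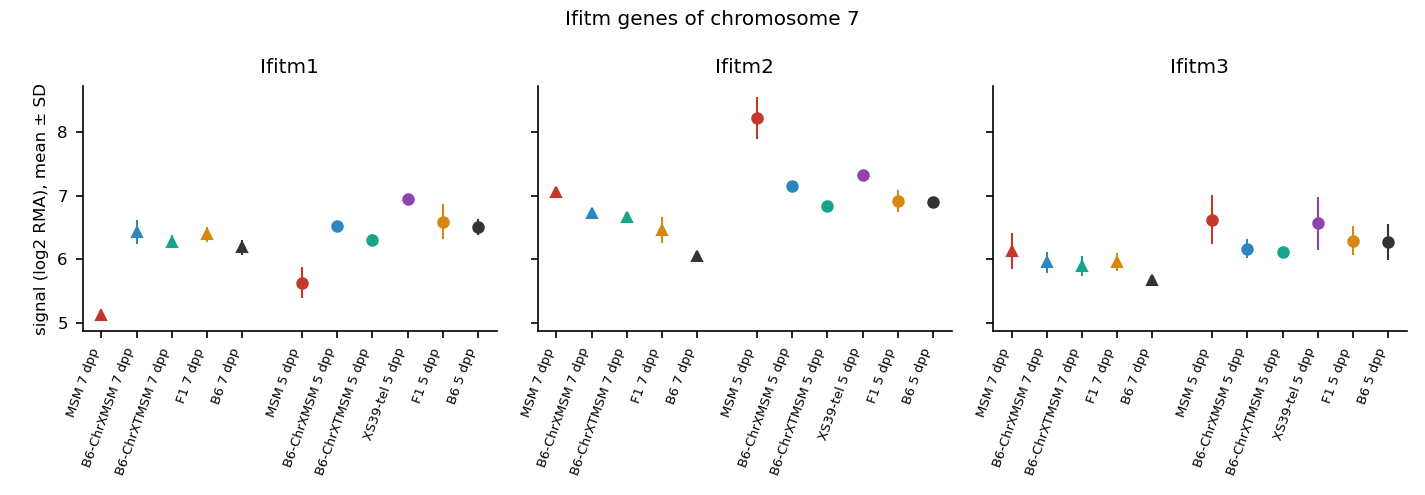
Mean signal ± SD (log2 RMA, y axis) of Ifitm1, Ifitm2 and Ifitm3 in each group (x axis, triangles 7 dpp on the left, circles 5 dpp on the right; n = 3, with n = 8 for F1 at 7 dpp). MSM lies below B6 for Ifitm1 (5.13 and 6.19 at 7 dpp) and above B6 for Ifitm2 (7.06 and 6.05 at 7 dpp).

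Ifi27 had higher values in MSM with both of its probe sets, under the fold threshold. At 7 dpp 1452956_a_at gave 8.07, 8.16 and 8.10 in MSM testes, against 7.55, 7.52 and 7.58 in B6 testes, and the log2 fold change of 0.56 ± 0.06 (SE, adjusted p = 7.98e-05) fell just short of the fold threshold. At the earlier age it gave 7.97, 7.84 and 8.04 in MSM testes, against 7.57, 7.60 and 7.53 in B6 testes (0.38 ± 0.07, SE, adjusted p = 0.00183). The other probe set, 1454757_s_at, whose suffix marks probes that can match transcripts of several genes, gave smaller differences in the same direction, 0.38 ± 0.07 (SE, adjusted p = 0.00202) at 7 dpp and 0.25 ± 0.06 (SE, adjusted p = 0.00919) at 5 dpp. MSM and B6 arrays did not overlap for either probe set at either age. Differences of this size are small beside those of Ifit2 and Ifitm1.

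Bst2 was not called at either age. At 7 dpp it gave 5.30, 5.42 and 5.47 in MSM testes, against 5.21, 5.37 and 5.37 in B6 testes (log2 fold change 0.08 ± 0.07, SE, adjusted p = 0.381). At 5 dpp its values were 5.02, 4.99 and 5.15 in MSM testes, against 5.47, 5.17 and 5.41 in B6 testes, a log2 fold change of -0.29 ± 0.09 (SE, adjusted p = 0.0236) under the fold threshold. The arrays overlapped at 7 dpp and were separated by a narrow margin at 5 dpp.

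Since all groups but MSM carry B6 alleles of these genes, MSM was also compared with the mean of all B6-background groups of the same age. Ifit2 and Ifitm1 were called lower at both ages, 2 of the 6 probe sets each time. The call of Ifit2 at 7 dpp depended on this choice of groups, as its log2 fold change against B6 alone was -0.33 and was not called. The mean of Ifit2 at 7 dpp was 4.31 in B6-ChrXMSM, 4.27 in B6-ChrXTMSM and 4.06 in F1, all above 3.62 in B6. Over all tested probe sets 19.3% were called at 7 dpp (8.19% as lower) and 28% at 5 dpp (11.5% as lower). For Ifit2 the log2 fold change was -0.78 ± 0.09 (SE, adjusted p = 5.11e-07) at 7 dpp and -1.45 ± 0.07 (SE, adjusted p = 8.8e-11) at 5 dpp. MSM means of Ifit2 were below the filter at both ages, so it entered this comparison only through the B6-background groups, where it was higher. For Ifitm1 the log2 fold change was -1.19 ± 0.08 (SE, adjusted p = 1.08e-10) at 7 dpp and -0.94 ± 0.10 (SE, adjusted p = 4.56e-07) at 5 dpp. The Ifi27 probe set 1452956_a_at stayed under the fold threshold, at 0.44 at 7 dpp and 0.35 at 5 dpp. This comparison shares its MSM arrays with the one against B6 and is no independent repeat of it.

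A further question was whether MSM sequence on the X chromosome alters these genes in testes that carry their B6 alleles. It was asked with B6-ChrXMSM, B6-ChrXTMSM, XS39-tel (5 dpp only) and F1, which is also heterozygous for chromosome 1. At 7 dpp Ifit2 was higher in B6-ChrXMSM and B6-ChrXTMSM than in B6, and the other genes were not called. In B6-ChrXMSM 1 of the 6 probe sets was called higher, where 6.08% of all tested probe sets were called and 1.47% were called higher. In B6-ChrXTMSM the count was also 1 of the 6, where 5.72% of all were called and 1.23% were called higher. In F1 none of the 6 was called, with 1.72% called over all. An unadjusted limma p under 0.05 was reached by 6 of the 6 in B6-ChrXMSM, 5 in B6-ChrXTMSM and 4 in F1. The share of all probe sets with an unadjusted p that low was not computed, so these counts have no background beside them. Most calls in B6-ChrXMSM and B6-ChrXTMSM pointed lower, whereas that of Ifit2 pointed higher.

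Ifit2 in detail gave 4.31, 4.12 and 4.50 in B6-ChrXMSM testes and 4.23, 4.22 and 4.35 in B6-ChrXTMSM testes at 7 dpp, against 3.75, 3.54 and 3.55 in B6 testes. The 8 F1 testes had a lowest value of 3.84, a median of 4.04 and a highest value of 4.29. All arrays of the 3 groups were above all B6 arrays of that age. The log2 fold change was 0.70 ± 0.10 (SE, 1.62-fold, adjusted p = 0.00127) in B6-ChrXMSM and 0.65 ± 0.07 (SE, 1.57-fold, adjusted p = 0.000629) in B6-ChrXTMSM. In F1 it was 0.44 ± 0.10 (SE, 1.36-fold, adjusted p = 0.0367), under the fold threshold. The 3 comparisons share their B6 arrays, and a difference among the 3 groups was not tested.

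Ifitm3 and Ifi27 leaned the same way at 7 dpp without a call. Ifitm3 gave 5.77, 6.01 and 6.08 in B6-ChrXMSM testes, all above the B6 arrays at 5.62 to 5.73 (log2 fold change 0.27 ± 0.09, SE, adjusted p = 0.034). In B6-ChrXTMSM it gave 6.03, 5.72 and 5.94, overlapping B6 (0.22 ± 0.08, SE, adjusted p = 0.0689), and in F1 it ranged from 5.74 to 6.23 (0.29 ± 0.09, SE, adjusted p = 0.0719). The Ifi27 probe set 1452956_a_at differed by 0.20 in B6-ChrXMSM (adjusted p = 0.0213), 0.18 in B6-ChrXTMSM (adjusted p = 0.0301) and 0.09 in F1 (adjusted p = 0.474). Bst2 differed by 0.15, 0.20 and 0.20 in these groups, with adjusted p values of 0.0942, 0.031 and 0.115. Ifitm1, which separated MSM so clearly, was at 6.25 to 6.62 in B6-ChrXMSM, 6.17 to 6.35 in B6-ChrXTMSM, 6.24 to 6.60 in F1 and 6.06 to 6.27 in B6, with adjusted p values of 0.0931, 0.39 and 0.15 for the 3 groups against B6.

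At 5 dpp none of the 6 probe sets was called in B6-ChrXMSM, B6-ChrXTMSM, XS39-tel or F1. Over all tested probe sets 1.67%, 0.301%, 0.649% and 0.538% were called in these comparisons. Ifit2 gave 4.34, 4.29 and 4.19 in B6-ChrXMSM, 4.24, 4.17 and 4.29 in B6-ChrXTMSM, 4.26, 4.41 and 4.02 in XS39-tel, and 4.27, 4.52 and 4.50 in F1 testes, against 4.15, 4.25 and 4.23 in B6 testes. F1 alone lay fully above B6 (0.22 ± 0.08, SE, adjusted p = 0.251), and the other 3 groups overlapped B6. The separation of Ifit2 from B6 in B6-ChrXMSM and B6-ChrXTMSM was thus seen at 7 dpp and not at 5 dpp. The greatest difference at this age was Ifitm1 in XS39-tel, with 7.00, 6.95 and 6.90, all above the B6 values (log2 fold change 0.44 ± 0.08, SE), although the adjusted p of 0.0714 missed the threshold. XS39-tel was also the group with the highest macrophage marker levels at 5 dpp, the mean of the 13 genes being 4.03 to 4.15 in XS39-tel and 3.64 to 3.97 in B6, and the part of these cells in the Ifitm1 value was not tested. An unadjusted limma p under 0.05 was reached by 4 of the 24 tests in these 4 comparisons. Here too the share of all probe sets with an unadjusted p that low was not computed.

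**Figure D4:**
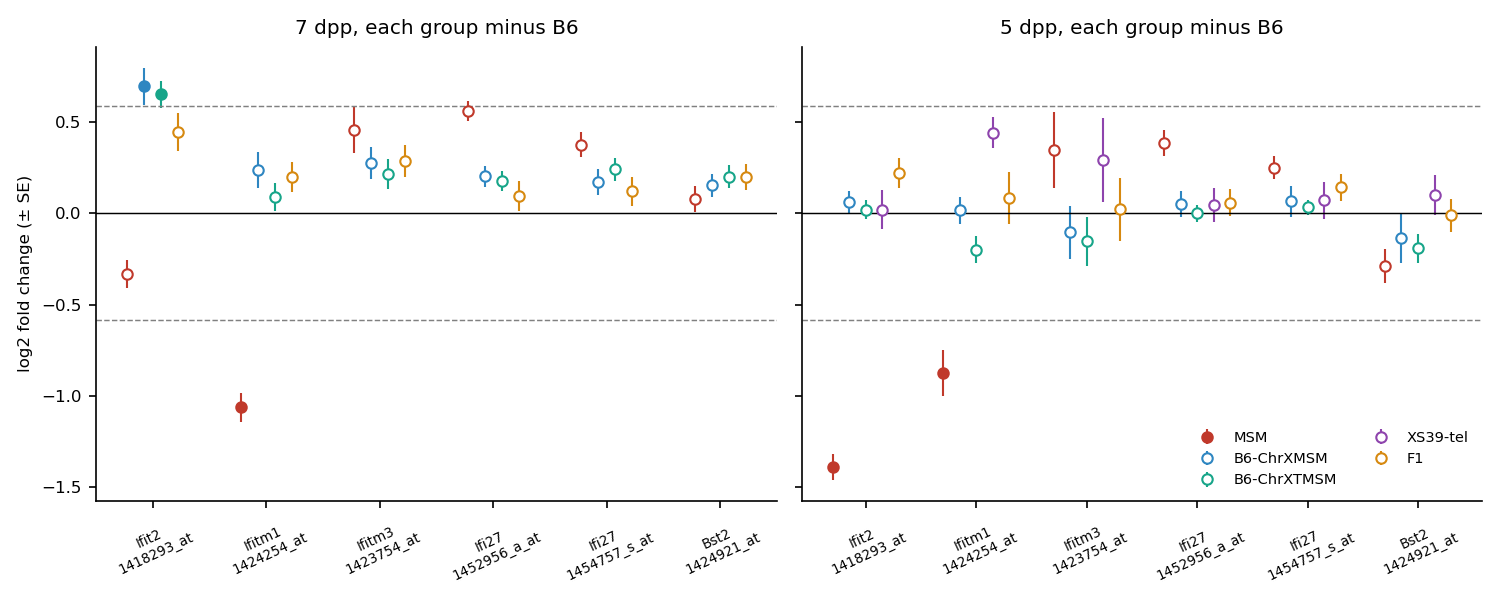
Log2 fold change ± SE (y axis) of each group minus B6 for the 6 probe sets above the filter (x axis), at 7 dpp on the left and 5 dpp on the right; filled points passed both thresholds and dashed lines mark a 1.5-fold change. Ifit2 is higher in B6-ChrXMSM (0.70) and B6-ChrXTMSM (0.65) at 7 dpp, whereas MSM is lower for Ifitm1 at both ages (-1.06 and -0.88) and for Ifit2 at 5 dpp (-1.39).

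Age was examined next. In B6 testes Ifit2 and Ifitm3 were lower at 7 dpp than at 5 dpp, 2 of the 6 probe sets, while 8.33% of all tested probe sets were called and 4.18% were called lower. Ifit2 averaged 3.62 ± 0.12 at 7 dpp and 4.21 ± 0.05 at 5 dpp in B6 (SD, n = 3 each), without overlap (log2 fold change -0.60 ± 0.07, SE, adjusted p = 0.000459). Ifitm3 averaged 5.68 ± 0.06 at 7 dpp and 6.28 ± 0.29 at 5 dpp in B6 (SD, n = 3 each), also without overlap (-0.60 ± 0.13, SE, adjusted p = 0.00735). Both changes were 1.51-fold and so lay right at the fold threshold. Without B6 replicate 2 of 5 dpp neither gene was called (-0.58 for Ifit2 and -0.46 for Ifitm3), and the same held without replicate 3 of 7 dpp (-0.57 for each). Without replicate 1 of 5 dpp the call of Ifitm3 was lost (-0.58), and without replicate 2 of 7 dpp that of Ifit2 was lost (-0.56). Ifitm1 differed by -0.31 ± 0.08 (SE, adjusted p = 0.0163), under the fold threshold.

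In MSM testes none of the 5 tested probe sets was called between 7 and 5 dpp, with 14.7% called over all. Of the 5, 3 had an unadjusted limma p under 0.05. The share of all probe sets with an unadjusted p that low was not computed, and 14.7% is the share under the stricter rule for a call. Ifitm1 (-0.50 ± 0.12, SE, adjusted p = 0.00814) and Bst2 (0.34 ± 0.08, SE, adjusted p = 0.00756) were under the fold threshold, and Ifitm3 differed by -0.49 ± 0.20 (SE, adjusted p = 0.0641). Leaving out MSM replicate 1 of 5 dpp added a call for Ifitm1 (-0.59), and leaving out replicate 3 of 5 dpp or replicate 1 of 7 dpp added one for Ifitm3 (-0.64 and -0.62). Ifit2 was below the filter at both ages in MSM and was not tested in this comparison, but its values at 7 dpp (3.23 to 3.36) were all above those at 5 dpp (2.72 to 2.91).

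The course of Ifit2 from 5 to 7 dpp therefore differed between strains, which was tested by the strain-by-age term, the fold change against B6 at 7 dpp minus that at 5 dpp. For Ifit2 the term was 1.06 ± 0.10 in MSM (SE, adjusted p = 4.18e-05), 0.63 ± 0.13 in B6-ChrXMSM (SE, adjusted p = 0.0246) and 0.63 ± 0.09 in B6-ChrXTMSM (SE, adjusted p = 0.00162). The term of MSM rests on MSM means below the filter at both ages, and with no filter its adjusted p was 0.000151. In each of these 3 comparisons Ifit2 was the 1 probe set of 6 called, and it was called higher. Over all tested probe sets the term was called in 12% for MSM, 1.4% for B6-ChrXMSM and 5.18% for B6-ChrXTMSM, and as higher in 5.68%, 0.71% and 2.15%. In F1 none of the 6 was called (Ifit2 0.22 ± 0.15, SE, adjusted p = 0.75), 0.0116% were called over all, and 0 of the 6 had an unadjusted limma p under 0.05. The mean of Ifit2 was lower at 7 dpp than at 5 dpp in B6 and also in F1 (4.06 and 4.43). The change with age within F1 was not tested. In B6-ChrXMSM (4.31 and 4.27) and B6-ChrXTMSM (4.27 and 4.23) the means of 7 and 5 dpp were close. All 3 terms rest on the same 6 B6 arrays. The term of B6-ChrXMSM lost its call without B6 replicate 2 of 5 dpp, without B6 replicate 2 or 3 of 7 dpp, and without B6-ChrXMSM replicate 1 or 3 of 7 dpp, with adjusted p values between 0.0158 and 0.0629 over all single omissions. Bst2 had a smaller term of the same sign in MSM (0.37 ± 0.12, SE, adjusted p = 0.0333) and B6-ChrXTMSM (0.39 ± 0.10, SE, adjusted p = 0.0209), under the fold threshold.

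The level of germ cell markers moved with these groups and is given beside Ifit2 for that reason. The mean of 11 germ cell genes at 7 dpp was 5.90 to 6.02 in MSM, 4.36 to 4.68 in B6-ChrXMSM, 4.42 to 5.04 in B6-ChrXTMSM, 4.93 to 5.95 in F1 and 5.78 to 5.88 in B6. At 5 dpp it was 5.38 to 5.67 in MSM, 3.23 to 3.99 in B6-ChrXMSM, 4.44 to 4.75 in B6-ChrXTMSM, 3.81 to 4.62 in XS39-tel, 4.11 to 4.36 in F1 and 4.76 to 4.96 in B6. The groups with the lowest mean Ifit2, MSM at both ages and B6 at 7 dpp, were those with the highest mean germ cell level. However, F1 at 7 dpp and MSM at 5 dpp had close germ cell means (5.52 and 5.56) and Ifit2 means of 4.06 and 2.82. In the B6-background groups of 5 dpp, germ cell means ran from 3.64 to 4.83, with Ifit2 means of 4.21 to 4.43. Of 10 germ cell genes tested at 7 dpp, 9 were called lower in B6-ChrXMSM and 9 in B6-ChrXTMSM than in B6, and 9 of 10 were called higher in B6 at 7 dpp than at 5 dpp. Over all tested probe sets 6.08%, 5.72% and 8.33% were called in these comparisons, in that order. Within the 8 F1 testes of 7 dpp, Ifit2 and the germ cell mean had a Pearson r of -0.31 (exact permutation p = 0.437) and a Spearman rho of -0.19 (exact permutation p = 0.665), two-sided. Without the 2 testes farthest from the median germ cell level r was -0.297. The same relation was computed for 6 probe sets, and the lowest adjusted p was 0.481 for r and 0.752 for rho. The part of germ cell content in the differences between groups was not tested.

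**Figure D5:**
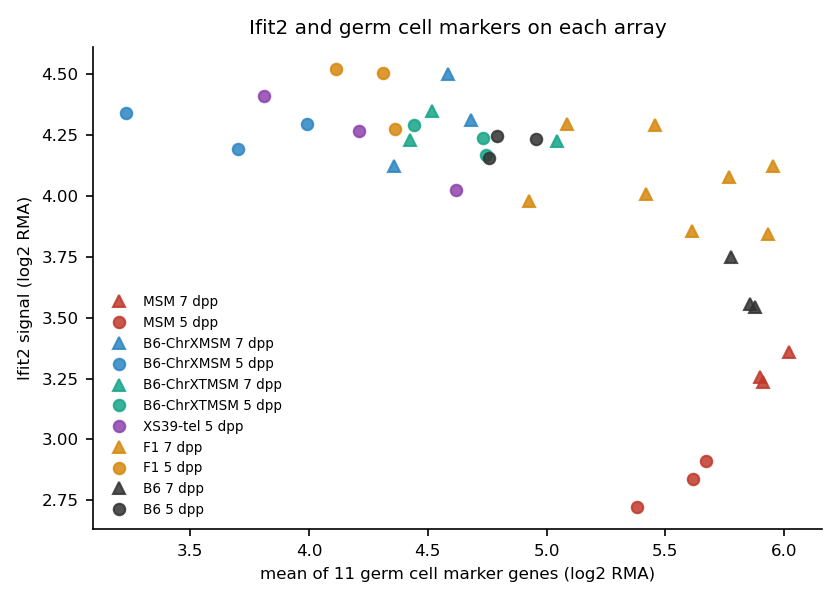
Ifit2 signal (log2 RMA, y axis) against the mean of 11 germ cell marker genes (log2 RMA, x axis) on each of the 38 arrays, with triangles for 7 dpp, circles for 5 dpp and colours for the strains. MSM testes of 5 dpp combine the lowest Ifit2 (2.72 to 2.91) with germ cell levels of 5.38 to 5.67, and B6 testes lie lower in Ifit2 and higher in germ cell markers at 7 dpp than at 5 dpp.

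Markers of other cells also differed between MSM and B6. The vascular endothelium list averaged 3.96 to 4.12 in MSM and 3.43 to 3.60 in B6 at 7 dpp, and 4.30 to 4.66 in MSM and 3.84 to 4.10 in B6 at 5 dpp. Macrophage markers, whose cells express many interferon-induced genes, averaged 3.46 to 3.55 in MSM and 3.69 to 3.75 in B6 at 7 dpp, and 3.50 to 3.81 in MSM and 3.64 to 3.97 in B6 at 5 dpp. Leydig cell markers averaged 6.25 to 7.12 in MSM and 6.69 to 7.04 in B6 at 7 dpp, and 5.98 to 6.91 in MSM and 6.76 to 7.18 in B6 at 5 dpp. Peritubular myoid markers averaged 6.53 to 6.93 in MSM and 6.37 to 6.59 in B6 at 7 dpp, and 6.91 to 7.31 in MSM and 6.45 to 6.75 in B6 at 5 dpp, where Tagln (0.97) and Des (0.82) were called higher. The endothelial ranges did not overlap at either age, the myoid ranges were apart at 5 dpp only, and the macrophage ranges were apart at 7 dpp only. The adipose list was apart at 7 dpp only, at 3.34 to 4.64 in MSM and 2.83 to 3.10 in B6. Sertoli cell markers were apart by a narrow margin at 5 dpp only (5.9292 to 6.1465 in MSM, 5.8094 to 5.9278 in B6). The epididymis list, with 1 of 4 genes above the filter, was lower in MSM at both ages without overlap. The part of these cells and tissues in the MSM differences was not tested.

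Such markers also differed in the comparisons in which Ifit2 was called within the B6 background. At 7 dpp the endothelium list averaged 3.60 to 3.79 in B6-ChrXMSM and 3.75 to 3.77 in B6-ChrXTMSM, against 3.43 to 3.60 in B6, and none of its genes was called. Macrophage markers averaged 3.68 to 3.76 in B6-ChrXMSM and 3.82 to 3.99 in B6-ChrXTMSM, against 3.69 to 3.75 in B6, so that B6-ChrXTMSM lay apart from B6 and B6-ChrXMSM did not. Of single markers, Lyz2 of macrophages (0.68) was called higher in B6-ChrXMSM. The Leydig cell genes Cyp11a1 (0.72) and Hsd3b1 (0.66) were called higher in B6-ChrXTMSM, and Fabp4 of adipose tissue was called higher in both groups (2.51 in B6-ChrXMSM and 2.71 in B6-ChrXTMSM). Between the ages of B6, the endothelium list averaged 3.43 to 3.60 at 7 dpp and 3.84 to 4.10 at 5 dpp, with Cdh5 (-0.68) and Emcn (-1.10) called lower at 7 dpp. The adipose list averaged 2.83 to 3.10 at 7 dpp and 3.32 to 5.41 at 5 dpp in B6, with Fabp4 (-5.10), Adipoq (-4.03) and Lpl (-0.69) called lower at 7 dpp. Ifit2 and Ifitm3 were lower at 7 dpp in the same B6 arrays, and the part of these cells in either gene was not tested.

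The rest of the pathway was read from 97 other genes on the array. In MSM against B6, 3 were higher and 6 lower among 43 tested at 7 dpp (median log2 fold change 0.01, with 0.11 over all probe sets), and 6 were higher and 9 lower among 45 tested at 5 dpp (median -0.10, with 0.08 over all). Of all tested probe sets 17.3% were called at 7 dpp and 28.2% at 5 dpp, and the counts are not read as particular to the pathway. The receptor, signal transducer and sensor genes that were called were lower. Jak1, the kinase shared by all interferon receptors, differed by -0.82 ± 0.07 (SE, adjusted p = 3.96e-05) at 7 dpp and -1.08 ± 0.11 (SE, adjusted p = 7.25e-05) at 5 dpp. Ifngr2, a subunit of the interferon gamma receptor, differed by -0.70 and -0.85, and Il10rb, a subunit of the interferon lambda receptor, by -0.89 at 5 dpp. The RNA sensor Ifih1 (Mda5) differed by -0.73 at 7 dpp (adjusted p = 0.000263) and -0.72 at 5 dpp (adjusted p = 0.000195). Among induced effectors the guanylate-binding protein gene Gbp7 had the greatest change, -2.20 at 7 dpp (adjusted p = 6.94e-08) and -3.02 at 5 dpp (adjusted p = 1.42e-07). Xaf1 (-1.01 at 7 dpp and -0.82 at 5 dpp) and Ifi35 (-0.64 at 7 dpp and -1.17 at 5 dpp) were lower at both ages, whereas Gbp2 (0.70) and Dtx3l (0.66) were higher at 7 dpp. Of the classical major histocompatibility genes, H2-D1 (0.93) and H2-K1 (0.87) were higher in MSM at 5 dpp. The probe sets of H2-D1, H2-K1 and Gbp2 have the suffix x_at and that of Ifi35 has s_at. Whether they bind transcripts of other genes was not tested. Probe sets on autosomes other than chromosome 1 were not screened for MSM polymorphisms, so the part of sequence mismatch was not tested here either. Only among the induced effectors were there calls in both directions.

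In the B6-background groups few pathway genes were called. None of the 97 genes was called in B6-ChrXMSM, B6-ChrXTMSM, XS39-tel or F1 at 5 dpp, where 45 or 46 were tested. Of all probe sets, 0.301% to 1.67% were called there. At 7 dpp the single call in B6-ChrXMSM (42 tested) and in B6-ChrXTMSM (43 tested) was Ifitm2, higher by 0.67 ± 0.06 (SE, adjusted p = 0.000133) and 0.62 ± 0.06 (SE, adjusted p = 0.000463), where 6.08% and 5.72% of all probe sets were called. Ifitm2 was also the single pathway gene lower at 7 dpp than at 5 dpp in B6 (-0.85 ± 0.06, SE, adjusted p = 5.54e-05), where 8.33% of all probe sets were called. These 3 comparisons share the B6 arrays of 7 dpp, in which both Ifitm2 and Ifit2 were lower than in the groups they were compared with. In MSM Ifitm2 (-1.17) and Ly6e (-1.13) were lower and Ifngr2 (0.61) was higher at 7 dpp than at 5 dpp, where 14.7% of all probe sets were called.

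The genes most like Ifit2 over the 38 arrays, among 10024 genes with a mean above the filter, were Tet2 (Pearson r 0.950), Gas2l3 (0.949) and Prelid2 (0.948). Those most like Ifitm1 were Ppic (0.942), Cast (0.937) and Ift27 (0.936). None of these is an interferon-induced gene of the lists used here, and none is on the chromosome of the gene it resembles. The arrays share strain and age, so these values describe the pattern over groups and are given without a test.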

How the data were processed

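Total RNA of 38 testes, 1 male each, had been hybridized to Affymetrix whole-genome mouse arrays. The authors deposited log2 signals after RMA in GeneSpring GX (version not given in the sources used here), that is, background-corrected, quantile-normalized perfect-match intensities summarised per probe set. Such a log2 scale keeps no molecule counts, so precision depends on how many arrays a group has. Array medians lay between 2.63 and 2.71, and arrays within a group correlated at 0.989 or more. Of 45101 probe sets, 34958 carried 1 gene symbol, 932 several and 9211 none. Probe sets with 1 gene on an autosome or the X chromosome were used, matched by gene ID to RefSeq, and those the study lists as polymorphic on X (236) and, where MSM or F1 entered, on chromosome 1 (653) were left out.

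From these values, linear models with empirical Bayes moderation (limma 3.58.1, R 4.3.3) were fitted to the groups compared, with Benjamini-Hochberg adjustment over all probe sets that passed the filter (a mean over log2 of 10 in any group compared). Calls required both an adjusted p below 0.05 and a difference of 1.5-fold or more. The MSM contrast with B6-background groups and the strain-by-age terms used 1 fit over their groups. The code was tested on simulated data, with changes placed only in probe sets whose reference mean was well above the filter. Ifit2, with B6 means of 3.62 at 7 dpp and 4.21 at 5 dpp, was too low to be among them. Pathway and marker genes were read from the probe set with the highest mean, and a list's level is the mean of its log2 signals on an array. All probe sets of the genes are named, with up to 8 called pathway genes per comparison by size of change, and the 3 genes with the highest Pearson r to each gene called against B6. The genes and lists were chosen with earlier results of these data known. Promoter sequences are from RefSeq (GRCm38.p6). Exact permutation tests used SciPy 1.17.1. Replicates were separate males.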

Additional observations from a re-analysis of the deposited data

Results flagged for a closer look

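The effect of strain differed between the ages for 2 of the genes by the strain-by-age term of limma. Ifit2 was flagged in MSM, where its fold change against B6 was 1.06 log2 units higher at 7 dpp (-0.33) than at 5 dpp (-1.39). It was flagged also in B6-ChrXMSM, with a term of 0.632 (0.70 at 7 dpp and 0.06 at 5 dpp), and in B6-ChrXTMSM, with 0.63 (0.65 at 7 dpp and 0.02 at 5 dpp). The 3 terms share the B6 arrays of both ages, in which Ifit2 was lower at 7 dpp. Bst2 was flagged with smaller terms, 0.369 in MSM (0.08 at 7 dpp and -0.29 at 5 dpp) and 0.393 in B6-ChrXTMSM (0.20 at 7 dpp and -0.19 at 5 dpp), neither of which reached a 1.5-fold change. No array stood apart among the 8 F1 testes of 7 dpp for any of the 9 probe sets, and groups of 3 are too small for that check.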

How the results depend on the processing

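The calls of Ifit2 and Ifitm1 in MSM at 5 dpp, of Ifitm1 in MSM at 7 dpp and of Ifit2 in B6-ChrXMSM and B6-ChrXTMSM at 7 dpp held under each alternative that tested them, and no called value changed sign under any alternative. With a filter at log2 of 32, Ifit2 was no longer tested in any comparison, so the counts of called probe sets became 1 for MSM against B6 at 5 dpp, 1 at each age for MSM against the B6-background groups and 1 for age in B6, and 0 for B6-ChrXMSM and B6-ChrXTMSM at 7 dpp and for the strain-by-age terms of MSM, B6-ChrXMSM and B6-ChrXTMSM. With an adjusted p under 0.05 and no fold threshold, the counts were 5 in all 4 MSM comparisons with B6 or the B6-background groups. At 7 dpp they were 3 for B6-ChrXMSM, 4 for B6-ChrXTMSM and 1 for F1. For age they were 3 in B6 (Ifitm1 added) and 2 in MSM. The strain-by-age terms of MSM and of B6-ChrXTMSM had 2 each. Under this looser rule the share of all probe sets called was not computed. These counts thus have no background beside them and are not read as particular to the genes. The strain-by-age call of Ifit2 in B6-ChrXMSM was lost (count 0) with no filter (adjusted p = 0.0662) and with 1 fit over all groups (adjusted p = 0.105), within a range of 0.0143 to 0.105 over the alternatives other than single omissions. The count for age in B6 was 1 with array weights, under which Ifit2 fell just below the fold threshold (-0.58). Leaving out 1 array at a time, counts ranged from 1 to 2 for MSM against B6 at 7 dpp (2 without MSM replicate 2), from 0 to 2 for age in B6, from 0 to 1 for age in MSM and from 0 to 1 for the strain-by-age term of B6-ChrXMSM, and did not change in the other comparisons. Same-numbered replicates did not deviate together (correlations of -0.35 to 0.35, with every pair over 0.1 in 0 of 9 comparisons), and a replicate block changed no call, leaving for example 2 calls for MSM against B6 at 5 dpp and -1.39 for Ifit2. No paired analysis was possible for the comparisons of ages. RMA values near the low end of the scale can be compressed, so folds of Ifit2 in MSM are less certain in size than those of Ifitm1. Groups of 3 limit what can be seen, and a p that missed the threshold does not show that values were equal.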
